A study of Homo sapiens with 12 samples.

Results

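The genes described here are 10 antioxidant genes of the NRF2 pathway: NFE2L2, KEAP1, SLC7A11, GCLC, GCLM, GSR, TXNRD1, SRXN1, NQO1 and HMOX1. They were chosen by name, with earlier results of these data known, and each had a row among the 14029 genes tested. RNA came from the human ovarian cancer line ES-2, whose cells carried either a control vector (genotype WT in the labels, PLKO in the sample names) or a short hairpin RNA (shRNA) against the kinase gene SRMS. The values used cover 3 samples of each construct, all treated with 15 µM cisplatin, a DNA-crosslinking platinum drug, for 8 hours. The labels name 1 cell line and no clone, hairpin sequence or separate cultures, so the spread behind every p-value may be technical. PBS samples are not analysed here, so no response of these genes to cisplatin was measured.

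NRF2, the product of NFE2L2, is a transcription factor that KEAP1 holds in the cytoplasm and marks for degradation until oxidants or electrophiles modify KEAP1. Freed NRF2 binds antioxidant response elements with small MAF partners and raises genes for glutathione synthesis, for the thioredoxin system and for quinone and heme metabolism. Glutathione binds platinum drugs, and the pathway is widely studied in cisplatin resistance. Transcript levels do not report NRF2 protein, which is mainly controlled by degradation.

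Each library held between 28009232 and 56855428 reads over the genes used. SRMS itself was counted in 2 to 47 reads per library. Its signal was 0.397 ± 0.384 in the vector libraries and 0.755 ± 0.384 in those labelled SRMS shRNA (means of 3 ± SD). The log2 fold change was 0.52 (limma adjusted p = 0.168), toward more SRMS. It passed the test in 4 alternative fits, among them the replicate block (limma adjusted p = 0.00782). In 14 others it did not, among them edgeR (adjusted p = 0.259) and DESeq2 (adjusted p = 0.437). No fall of the targeted gene was therefore seen, and every direction below is that of the libraries labelled SRMS shRNA. The epithelial keratins KRT7, KRT8 and KRT18 were abundant, with means of 697, 92.9 and 875 in the vector libraries and 543, 105 and 1015 in those labelled SRMS shRNA. The ovarian lineage factor PAX8 was near 0 (0.136 and 0.241), WT1 was at 2.84 and 1.42, and EPCAM, CDH1, KRT19 and MUC16 have no row among the genes used. The 5 of 9 epithelial markers with a row summed to 1640 to 1699 and 1621 to 1691. ARID1A, listed for clear cell carcinoma, was at 78.2 and 41.4. The leukocyte list, with PTPRC and CD3E without a row, summed to 0.830 to 1.41 and 3.49 to 4.12 over 3 of 5 genes, mostly CD14 (0.879 and 3.24). The endothelial list without VWF summed to 14.1 to 16.1 and 5.63 to 7.41 over 2 of 3, from CDH5 (15.2 and 6.12) and PECAM1 (0.211 and 0.393). Of 3 fibroblast markers, PDGFRA was at 10.02 and 7.81, and DCN and LUM have no row. The part of these differences in the results below was not tested.

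Most of the 10 genes were lower in the libraries labelled SRMS shRNA. By limma, 9 of 10 fell, 0 rose and 1, SRXN1, did not pass the test, where 30.2% of all genes tested fell. For the same 9 genes every SRMS shRNA value lay below every vector value, against 32.9% of all genes with no overlap in that direction. The median log2 fold change was -0.47 over the 10 genes and 0.00311 over all genes tested. The largest falls were in SLC7A11, TXNRD1, HMOX1, GCLM and GCLC, and the smallest in NQO1 and KEAP1. A fall of at least 1 on the log2 scale was met by 1 member, SLC7A11, and by 1.33% of all genes. Signal is on the CPM scale, computed from the effective library size, and fold changes are on the scale of log2(signal + 0.5). Fewer cells with a transcript and less of it per cell cannot be told apart in these bulk samples.

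**Figure D1:**
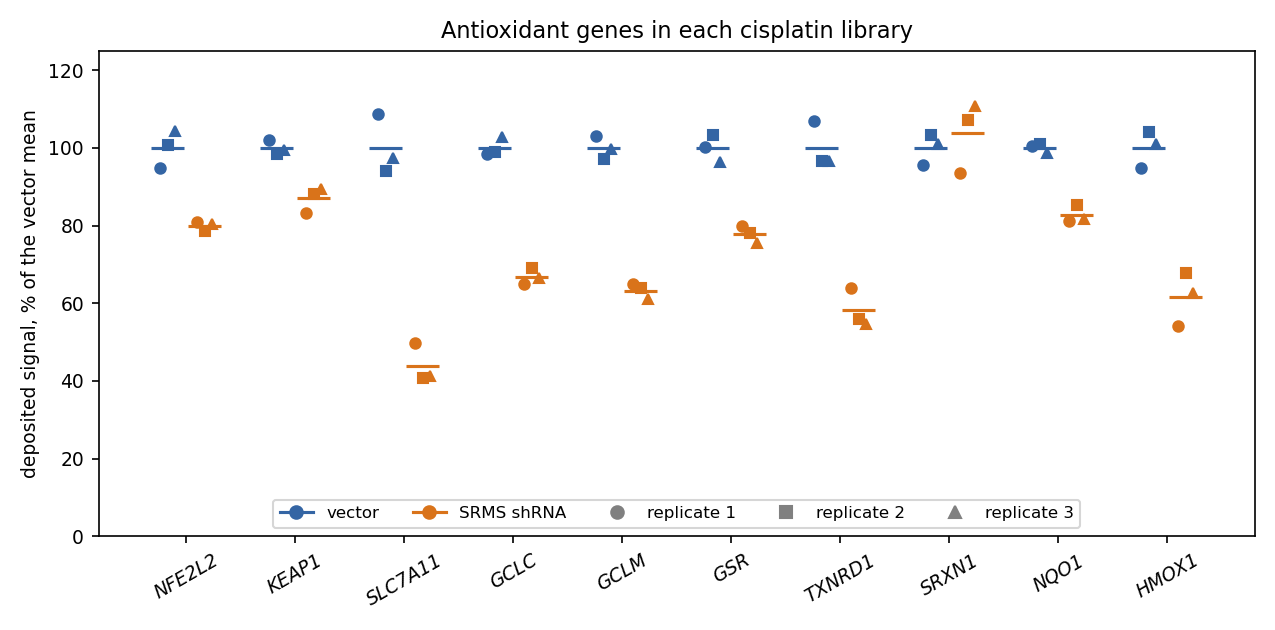
Signal of each gene in each cisplatin library, as percent of the mean of the 3 vector libraries (y axis), with the vector in blue and SRMS shRNA in orange, symbols for replicates and lines for means. The orange points lie below all blue points for 9 genes, while for SRXN1 1 lies below them and 2 above, with the lowest mean for SLC7A11 at 43.9%.

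The regulators were lower by modest amounts. NFE2L2 (ENSG00000116044, chromosome 2, 177227595 to 177392697, minus strand, GRCh38) had signals of 135, 144 and 149 in vector replicates 1, 2 and 3, and of 115, 112 and 115 in the libraries labelled SRMS shRNA. Every SRMS shRNA value lay below every vector value, and the log2 fold change was -0.32 (SE 0.0415, limma adjusted p = 0.000104). KEAP1 (ENSG00000079999, chromosome 19, 10486120 to 10503741, minus strand), the adaptor that hands NRF2 to a ubiquitin ligase, had 139, 134 and 135 against 113, 120 and 121. These groups did not overlap either, with a log2 fold change of -0.20 (SE 0.0386, limma adjusted p = 0.00129). Whether KEAP1 passed the test depended on the scaling: after median alignment of the libraries its log2 fold change was -0.04 (limma adjusted p = 0.391). That alignment moved the median of all genes upward too, from 0.00311 to 0.163. Per transcript length, NFE2L2 stood at 1.01, 1.11 and 1.14 times KEAP1 in the vector libraries and at 1.06, 0.968 and 0.978 times in those labelled SRMS shRNA, and these ranges overlapped.

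The 4 genes of glutathione supply all fell. SLC7A11 (ENSG00000151012, chromosome 4, 138164097 to 138242349, minus strand) encodes the transporter that exchanges glutamate for cystine, the source of cysteine for glutathione. Its signal was 19.2, 16.6 and 17.2 in the vector libraries and 8.79, 7.23 and 7.29 in those labelled SRMS shRNA, from 575 to 988 reads and from 228 to 263 reads. Replicate 1 was the highest in each group, and the groups lay far apart. The log2 fold change was -1.14 (95% interval -1.34 to -0.94, limma adjusted p = 4.69e-06), which placed the gene 94th from the lowest of 14029. Its transcript is the longest of the 10, at 9645 nt. In a fit with the replicate number as a block and values corrected for transcript length and GC content, called the corrected fit below, its log2 fold change was -0.82. The correction removes each library's trend with length and GC content, and with it any construct difference that follows them.

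GCLC (ENSG00000001084, chromosome 6, 53497341 to 53616970, minus strand) encodes the catalytic subunit of glutamate-cysteine ligase, which starts glutathione synthesis. Its signals of 53.7, 54.1 and 56.2 with the vector compared with 35.5, 37.8 and 36.4. GCLM (ENSG00000023909, chromosome 1, 93885205 to 93909456, minus strand), the modifier subunit of the same enzyme, had 93.3, 88.0 and 90.2 against 58.7, 57.7 and 55.2. Neither gene's groups overlapped, and the libraries labelled SRMS shRNA held 66.9% of the vector mean for GCLC and 63.2% for GCLM. The log2 fold changes were -0.57 (SE 0.0447, limma adjusted p = 3.9e-06) for GCLC and -0.66 (SE 0.0416, limma adjusted p = 1.22e-06) for GCLM. The ratio of the subunits overlapped between groups, and GCLC per transcript length was 0.770 ± 0.0317 of GCLM in the vector libraries and 0.814 ± 0.0379 in those labelled SRMS shRNA (two-sided exact permutation p = 0.3). GSR (ENSG00000104687, chromosome 8, 30678061 to 30727999, minus strand), glutathione reductase, regenerates glutathione from its oxidised form. It had 46.9, 48.4 and 45.1 against 37.4, 36.5 and 35.3, again with no overlap. Its log2 fold change was -0.36 (SE 0.0468, limma adjusted p = 0.000112), smaller than that of either ligase subunit, with 95% intervals that did not meet theirs.

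The 2 genes of the thioredoxin and peroxiredoxin arm parted. TXNRD1 (ENSG00000198431, chromosome 12, 104215779 to 104350305, plus strand), the cytosolic selenoenzyme that reduces thioredoxin, had 644, 581 and 581 in the vector libraries and 385, 336 and 329 in those labelled SRMS shRNA. It was the most abundant of the 10 and lay apart between groups, with a log2 fold change of -0.78 (95% interval -0.92 to -0.65, limma adjusted p = 4.08e-06). TXNRD1 alone made up between 42.0% and 44.7% of the summed signal of the 10 genes in the vector libraries, and between 34.1% and 38.2% in the others. SRXN1 (ENSG00000271303, chromosome 20, 646615 to 653370, minus strand), sulfiredoxin, repairs overoxidised peroxiredoxins. Its signals were 42.9, 46.5 and 45.4 against 42.0, 48.2 and 49.8, so that 1 SRMS shRNA library was the lowest of all and the other two the highest. The log2 fold change was 0.05 (95% interval -0.09 to 0.20, limma adjusted p = 0.52), and the value was lower in 1 of 3 same-numbered pairs. Without SRMS shRNA replicate 1 it was 0.12 (limma adjusted p = 0.0409), and after median alignment of the libraries 0.21 (limma adjusted p = 0.0202), both toward higher values. In the latter setting the median of all genes was 0.163. The annotated gene AL121758.1 overlaps SRXN1 on the same strand, so reads of SRXN1 may be split between them. Other members also have annotated genes on the same strand within their bounds, among them EID3 for TXNRD1, AC019080.1 for NFE2L2 and AL033397.1 for GCLC.

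NQO1 and HMOX1 also fell, by different amounts. NQO1 (ENSG00000181019, chromosome 16, 69706996 to 69726951, minus strand), a quinone reductase, had 250.9, 251.9 and 246 in the vector libraries and 203, 213 and 204 in those labelled SRMS shRNA. The groups were separate, and the log2 fold change was -0.27 (SE 0.0335, limma adjusted p = 7.29e-05). HMOX1 (ENSG00000100292, chromosome 22, 35380361 to 35394214, plus strand), the inducible heme oxygenase, had 15.8, 17.3 and 16.8 against 8.98, 11.2 and 10.4, from 246 to 963 reads per library. SRMS shRNA replicate 1 was the lowest for HMOX1, while for SLC7A11 and TXNRD1 it was the highest of its group. The log2 fold change of HMOX1 was -0.68 (SE 0.087, limma adjusted p = 9.5e-05). HMOX1 has the shortest transcript of the 10, at 1822 nt, and its fall grew to -0.84 in the corrected fit.

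**Figure D2:**
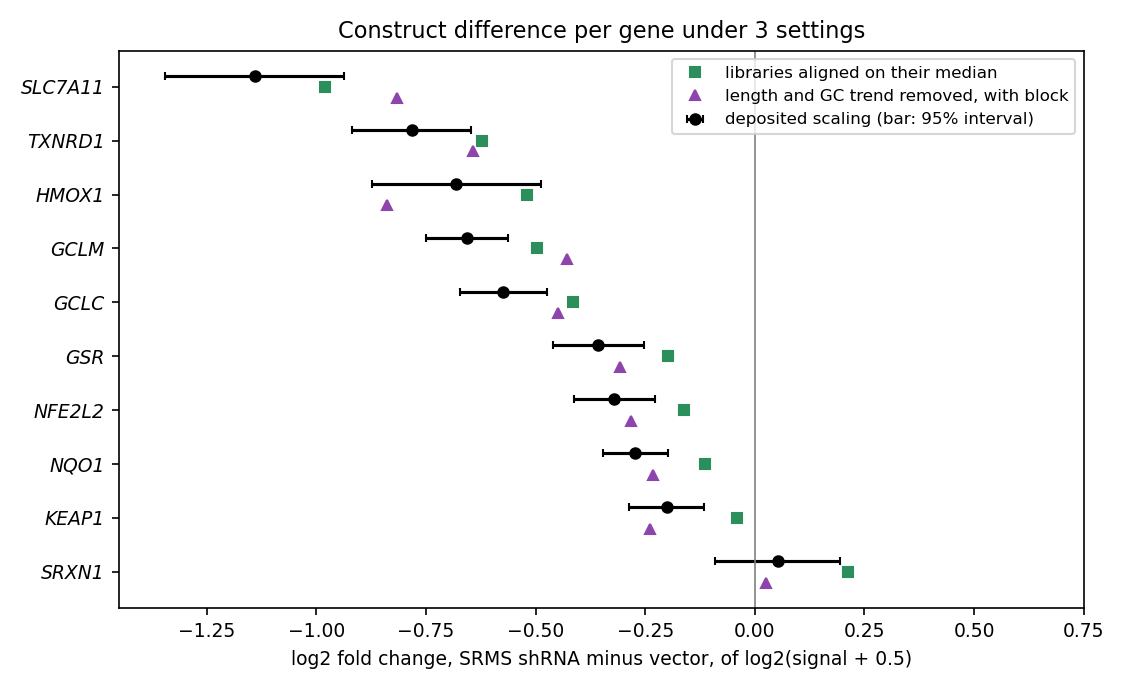
Log2 fold change of each gene (x axis, SRMS shRNA minus vector) with the deposited scaling in black with its 95% interval, after median alignment in green, and in the fit corrected for transcript length and GC content, with the replicate block, in purple. The green points lie 0.16 to the right of the black ones, which brings KEAP1 to -0.04 and SRXN1 to 0.21, and the purple points are closer to 0 for SLC7A11 and GCLM and farther from 0 for HMOX1.

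With the deposited scaling, the fold changes in order of size formed 4 steps. SLC7A11 stood alone, since its 95% interval did not meet that of TXNRD1. TXNRD1, HMOX1, GCLM and GCLC followed, and the intervals of neighbours within these overlapped. GSR, NFE2L2, NQO1 and KEAP1 came next, again with overlapping neighbours, and SRXN1 stood apart at the end. The scaling moves all genes together. Median alignment moved the median of all genes upward by 0.16, from 0.00311 to 0.163. With it, 8 of the 10 were lower and 1, SRXN1, was higher, against 17.9% and 44.6% of all genes. In the corrected fit, 9 were lower and 0 higher, against 30.2% lower and 30.5% higher among all genes, and the median of the 10 was -0.37. There HMOX1 (-0.84, SE 0.0665) stood beside SLC7A11 (-0.82, SE 0.0681), so that SLC7A11 neither came first nor stood alone. Without replicate 1 of both groups, which stood apart from replicates 2 and 3 across genes, 9 were lower. SRXN1 passed the test toward higher there at 0.09 (limma adjusted p = 0.05, unrounded just under the threshold). Of all 14029 genes, 4653 were lower and 4091 higher in that fit.

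Levels per kilobase of transcript put TXNRD1 first in each group, at 153 ± 9.26 in the vector libraries and 89.1 ± 7.80 in those labelled SRMS shRNA (mean ± SD, n = 3 each). NQO1 was second at 85.8 ± 1.04 and 71.0 ± 1.93. With the vector the order went on with NFE2L2 (49.97 ± 2.45), KEAP1 (46.0 ± 0.840), GCLM (18.6 ± 0.545), SRXN1 (16.6 ± 0.680), GSR (14.7 ± 0.510), GCLC (14.3 ± 0.347) and HMOX1 (9.12 ± 0.434). SLC7A11 was last at 1.83 ± 0.142 with the vector and 0.806 ± 0.0918 in the other group. GSR and GCLC were the only neighbours whose ranges overlapped in the vector libraries. In the libraries labelled SRMS shRNA the order differed at 2 places. KEAP1 and NFE2L2 were level at 40.0 ± 1.51 and 39.9 ± 0.593, and SRXN1 at 17.3 ± 1.52 stood above GCLM at 11.8 ± 0.367, whose range overlapped that of GSR. These levels rest on 1 annotated transcript per gene, and another transcript would change them.

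**Figure D3:**
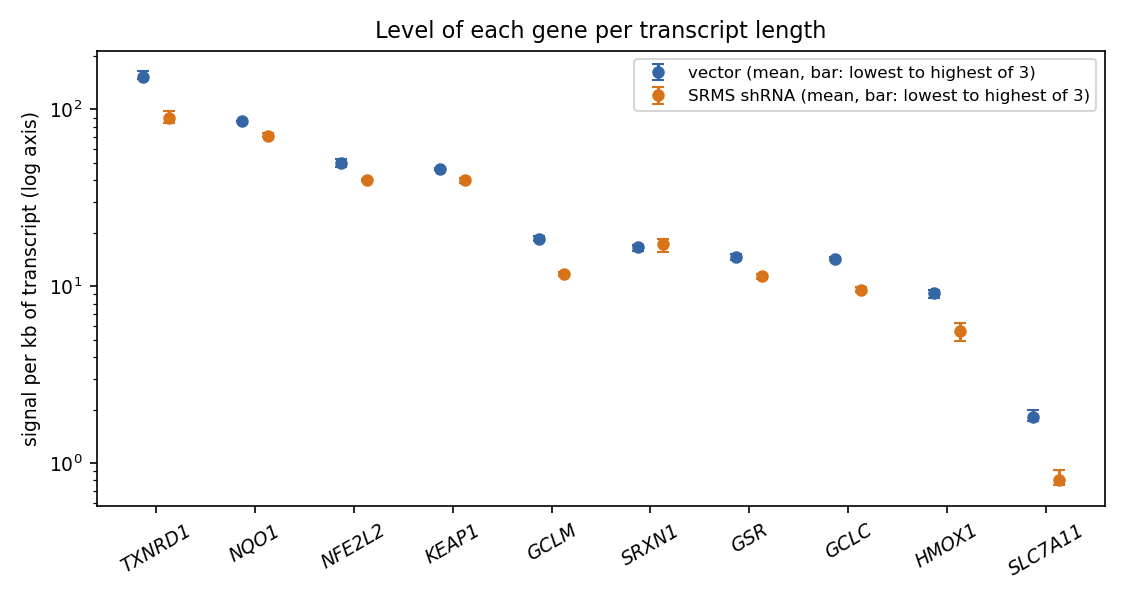
Signal per kilobase of annotated transcript (y axis, log scale) for each gene in order of its vector level, with the mean of 3 libraries as points and the lowest to highest library as bars, vector in blue and SRMS shRNA in orange. TXNRD1 is highest and SLC7A11 lowest in each group, and SRXN1 lies above GCLM only in the SRMS shRNA libraries.

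Promoter windows from RefSeq (GRCh38.p14, 250 bases before to 50 after a start site) were found for 7 of the 10 genes, in 10 windows. SLC7A11, GSR and HMOX1 have no entry. The core of the antioxidant response element, TGACNNNGC, was searched on both strands. It was present in 4 of the 10 windows, those of GCLM, KEAP1 and TXNRD1, against 13.3% of all windows and 14.2% of those of genes tested. These windows are shown because they hold the letters that NRF2 is known to bind, in 2 genes that fell strongly and in KEAP1, which fell little. Capitals mark the matches, and GCNNNGTCA is the same motif read from the opposite strand.
GCLM, chr1:93909381-93909680, minus strand: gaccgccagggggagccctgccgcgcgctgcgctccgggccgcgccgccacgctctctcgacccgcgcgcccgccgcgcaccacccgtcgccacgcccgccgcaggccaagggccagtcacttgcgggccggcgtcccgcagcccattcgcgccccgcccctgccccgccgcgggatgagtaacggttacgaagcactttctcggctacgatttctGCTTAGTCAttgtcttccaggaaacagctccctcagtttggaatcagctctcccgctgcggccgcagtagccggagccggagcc
TXNRD1 first start site, chr12:104215529-104215828, plus strand: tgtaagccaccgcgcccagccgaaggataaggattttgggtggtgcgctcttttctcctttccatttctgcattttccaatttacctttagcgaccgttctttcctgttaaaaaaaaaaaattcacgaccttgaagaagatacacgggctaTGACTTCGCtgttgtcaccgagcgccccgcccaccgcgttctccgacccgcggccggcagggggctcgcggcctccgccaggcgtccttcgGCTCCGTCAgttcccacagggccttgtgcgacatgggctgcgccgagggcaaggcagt
TXNRD1 second start site, chr12:104286782-104287081, plus strand: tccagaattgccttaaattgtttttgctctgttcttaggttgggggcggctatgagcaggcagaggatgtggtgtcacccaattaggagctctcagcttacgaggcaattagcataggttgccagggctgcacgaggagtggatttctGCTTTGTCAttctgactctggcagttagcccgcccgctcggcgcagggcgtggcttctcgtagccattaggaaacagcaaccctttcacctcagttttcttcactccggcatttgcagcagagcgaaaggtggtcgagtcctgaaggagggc
KEAP1, chr19:10502722-10503021, minus strand: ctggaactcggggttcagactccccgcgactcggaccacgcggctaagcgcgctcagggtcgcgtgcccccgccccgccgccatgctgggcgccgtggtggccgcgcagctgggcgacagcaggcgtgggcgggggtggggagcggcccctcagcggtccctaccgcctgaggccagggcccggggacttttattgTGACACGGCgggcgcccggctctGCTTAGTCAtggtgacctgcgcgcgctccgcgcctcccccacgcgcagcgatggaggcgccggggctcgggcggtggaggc
Counting the start site as 1, the match in GCLM begins at -34, those in the first TXNRD1 window at -99 and -8, that in the second at -102, and those in KEAP1 at -54 and -31. The matches in GCLM and KEAP1 that lie on the opposite strand share the letters TGACTAAGC. A second KEAP1 window and the windows of NFE2L2, GCLC, NQO1 and SRXN1 do not hold these letters, which says nothing of elements elsewhere. The data do not tell which start site was used, and a match is a description of letters only.

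Other genes of the pathway, from 6 lists fixed by function, had more rises than falls with the deposited scaling, and this balance depended on the fit. Of 86 with a row, 32 rose, 14 fell and 40 did not pass the test by limma, where 26.6% of all genes rose and 30.2% fell. Their median log2 fold change was 0.09. These transcripts are short, with a median of 1770 nt against 3055 nt over all genes and 3073.5 nt for the 10. The replicate block alone gave 41 higher and 19 lower, against 31% and 34.3% of all genes. In the corrected fit, which also holds the block, 27 of the 86 were higher and 34 lower, against 30.5% and 30.2% of all genes, and their median was -0.02. After median alignment of the libraries 54 were higher and 8 lower, against 44.6% and 17.9%.

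Among the regulators of NRF2, 4 of 12 rose and 3 fell, near the shares of all genes (26.6% and 30.2%). The corrected fit gave the same counts, but partly for other genes of the list. MAFF, a small MAF partner, rose from 25.8 ± 1.26 to 33.4 ± 1.85, and RBX1, the ring subunit of the KEAP1 ubiquitin ligase, from 57.3 ± 0.674 to 69.8 ± 4.76 (mean ± SD, n = 3 each, here and below). BACH1, a repressor that competes at the same elements and restrains HMOX1, fell from 32.9 ± 1.42 to 24.7 ± 1.59. CUL3, the scaffold of that ligase, fell from 110 ± 4.67 to 93.2 ± 2.09. RBX1 did not pass the test in the corrected fit (limma adjusted p = 0.064), nor did CUL3, at 0.048 in the other direction (limma adjusted p = 0.109). CUL3 also lost its call after median alignment of the libraries (-0.08, limma adjusted p = 0.127).

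In glutathione synthesis and use, 14 of 29 genes rose and 3 fell, where 26.6% of all genes rose and 30.2% fell. The median of the list was 0.18. SLC3A2, the heavy chain that carries SLC7A11 to the membrane, rose from 450.2 ± 13.7 to 602 ± 9.99 while SLC7A11 fell. GPX4, the glutathione peroxidase that acts on lipid peroxides, rose from 196 ± 5.81 to 272 ± 23.0. CBS, which makes cystathionine on the route from methionine to cysteine, rose from 20.7 ± 0.422 to 27.6 ± 0.358, and GLRX, a glutaredoxin, from 46.5 ± 0.850 to 59.6 ± 0.577. In the corrected fit, 12 genes of the list were higher and 7 lower, against 30.5% and 30.2% of all genes, and the median was 0.02. There the log2 fold change was 0.31 against 0.42 for SLC3A2 and 0.14 against 0.47 for GPX4.

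Of 16 thioredoxin and peroxiredoxin genes, 8 rose and 3 fell, where 26.6% of all genes rose and 30.2% fell. TXNIP, the inhibitor of thioredoxin, had the largest change of all 86, from 55.4 ± 3.66 to 26.6 ± 1.08 (log2 fold change -1.04, SE 0.0573, limma adjusted p = 5.61e-07). TXNRD2, the mitochondrial thioredoxin reductase, rose from 74.5 ± 2.26 to 100.4 ± 3.85 while TXNRD1 fell. The peroxiredoxins PRDX5 and PRDX6 rose, from 244 ± 5.88 to 331 ± 8.37 and from 333 ± 5.03 to 391 ± 13.9. In the corrected fit, 6 of the list were higher and 7 lower, against 30.5% and 30.2% of all genes. The median of the list changed sign from 0.14 to -0.05.

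NADPH, the reductant for GSR and TXNRD1, is supplied by 7 listed genes. Of these, 2 rose and 2 fell, near the shares of all genes (26.6% and 30.2%). In the corrected fit 2 of the 7 were higher and 5 lower, against 30.5% and 30.2% of all genes. PGLS of the pentose phosphate pathway rose from 66.3 ± 7.60 to 95.02 ± 11.6 and IDH1 from 73.6 ± 1.77 to 81.1 ± 2.89. ME1, malic enzyme, fell from 40.5 ± 1.77 to 30.7 ± 1.42, and PGD from 363 ± 6.84 to 335 ± 7.67. PGD lost its call under several settings, among them the one after median alignment of the libraries, where it stood at 0.045. Of 19 other NRF2 targets and detoxification genes, 3 rose and 3 fell, both under the shares of all genes. In the corrected fit 11 of these 19 were lower and 2 higher, against 30.2% and 30.5% of all genes, and their median was -0.13. UGDH, which makes UDP-glucuronate, fell from 189.7 ± 7.80 to 116 ± 8.99, and ABCC2, an export pump for glutathione conjugates, from 28.5 ± 0.995 to 18.8 ± 1.56. AKR1A1, an aldehyde reductase, rose from 50.8 ± 1.10 to 63.4 ± 2.17. BLVRB, a biliverdin reductase, rose from 19.3 ± 0.903 to 24.0 ± 0.760, and was at -0.03 in the corrected fit. Of SOD1, SOD2 and CAT, SOD1 rose from 287 ± 2.01 to 316 ± 10.1, and under that same setting it was lower at -0.09 (limma adjusted p = 0.00122). After median alignment, the medians of the regulator, NADPH and other target lists changed from -0.01, -0.06 and -0.05 to 0.15, 0.10 and 0.11. The median of all genes moved along with them, from 0.00311 to 0.163, so this change is that of the scaling.

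**Figure D4:**
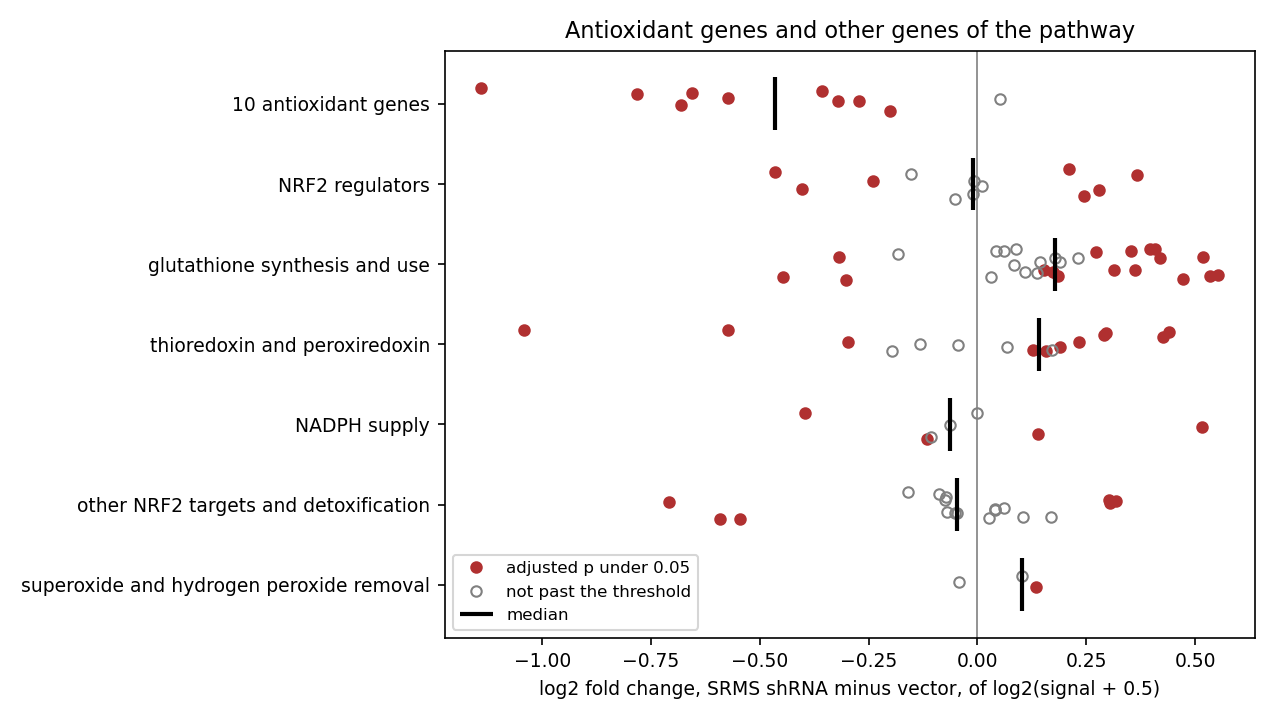
Log2 fold change (x axis, SRMS shRNA minus vector) of each of the 10 genes and of the 86 other pathway genes by list, filled red where the limma adjusted p was under 0.05 and open otherwise, with the median as a bar. The 10 genes have a median of -0.47, while the glutathione and thioredoxin lists have 0.18 and 0.14 with the deposited scaling. In the fit corrected for length and GC content these 3 medians are -0.37, 0.02 and -0.05.

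Members were then set against their known partners by the ratio of signal per kilobase within each library, in 7 pairs chosen after the values were seen. The ratio of SLC7A11 to SLC3A2 was 0.00926, 0.00848 and 0.00865 in the vector libraries and 0.00321, 0.00272 and 0.00274 in those labelled SRMS shRNA, a log2 difference of -1.61. TXNRD1 to TXNRD2 was 4.69, 4.06 and 4.31 against 2.16, 1.78 and 1.71, and TXNRD1 to its substrate TXN was 0.498, 0.448 and 0.440 against 0.282, 0.231 and 0.227. GCLC to GSS, the enzymes of the consecutive steps of glutathione synthesis, was 0.281, 0.264 and 0.278 against 0.162, 0.169 and 0.163. The groups did not overlap in these 4 pairs, and overlapped in GCLC to GCLM, SRXN1 to PRDX1 and NFE2L2 to KEAP1. A ratio within a library does not depend on its scaling, but these ratios are not corrected for the trend with length and GC content. In the corrected fit the log2 fold changes were -0.82 for SLC7A11 and 0.31 for SLC3A2, and -0.45 for GCLC and 0.12 for GSS. There TXNRD1 was at -0.64 and TXNRD2 at 0.27, and TXN went from 0.13 to -0.09. The two-sided exact permutation p was 0.1 for each of the 4, the smallest that 3 against 3 libraries allow, and 0.175 adjusted over the 7 pairs, so none could pass 0.05. The SRXN1 to PRDX1 ratio was 0.0178 ± 0.00105 in the vector libraries and 0.0177 ± 0.00186 in those labelled SRMS shRNA (exact permutation p = 0.9).

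Profiles like those of SLC7A11, GCLM and TXNRD1 were common. Of 9753 other genes with a mean signal of at least 5, 21.7%, 21.1% and 21.0% had a Pearson r above 0.95 with them over the 6 libraries, 3 of each construct, so the difference between the groups enters every r. The closest were COPA, BTAF1 and DNMBP for SLC7A11, ACSL4, GTF2H2C and EGLN1 for GCLM, and ARID2, NNT and CCDC6 for TXNRD1.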

How the data were processed

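Poly(A) RNA of 6 of the 12 samples was used; per the labels' protocols libraries were stranded TruSeq, read in paired ends on a NovaSeq instrument. The submitters' processing notes name FastQC, cutadapt, HISAT2, StringTie and edgeR with GRCh38; their versions, filters and strand settings are not stated there. The file name of the authors' deposited table speaks of log CPM, yet it holds a linear signal, in which reads were scaled as CPM to the effective library size. Division by the smallest step of each column returned whole reads, within 0.1, for at least 99.99% of values. Of 14042 rows, 13 for Y copies of pseudoautosomal genes were left out. Names came from the gene name table, and coordinates, lengths and GC content from GENCODE release 29, with 1 transcript per gene.

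The test was limma 3.58.1 (R 4.3.3) with a mean-variance trend on log2(signal + 0.5), without a block, adjusted by Benjamini-Hochberg over 14029 genes at a threshold of 0.05. Alternatives were edgeR 4.0.16 and DESeq2 1.42.0 on recovered reads, other scalings, pseudocounts and filters, a replicate block, splines of length and GC content, and libraries left out. Only the main limma fit and the edgeR and DESeq2 fits were tested on simulated data. These data held no replicate shift and no trend with length or GC content, so they say nothing of the other alternatives. Across genes, the deviations of same-numbered libraries had r of 0.309, 0.106 and 0.120. Replicates 2 and 3 correlated about as much across numbers (0.113 and 0.114), so these values do not pair them by number. The numbers were used as a block only in alternative fits. Replicate 1 of each group had r of -0.180 to -0.194 with replicates 2 and 3 of the other group. Replicates 2 and 3 gave a chi-square of 1.79 and 1.65 per gene, against 3.55 to 5.07 for pairs with replicate 1. Replicate 1 thus stood apart in both groups. All libraries were kept, and the main fit holds no term for this. Members and lists were chosen with earlier results of these data known. Named genes are the members, SRMS, up to 4 genes with the smallest adjusted p per list, and the 3 genes most like SLC7A11, GCLM and TXNRD1; GSS, TXN and PRDX1 were added as partners after values were seen.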

Additional observations from a re-analysis of the deposited data

How the results depend on the processing

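The 9 calls toward lower values held under quantile scaling, other pseudocounts, no trend, array weights, the replicate block, edgeR, DESeq2 and every library left out. KEAP1 lost its call with median scaling. SRXN1 passed the test toward higher with median scaling, without SRMS shRNA replicate 1 and without replicate 1 of both groups. The block changed no call among the members. Requiring an absolute log2 fold change of 1 left 292 of 7969 genes, 1 member, and 1 lower and 0 higher list genes. Median scaling gave 8 lower and 54 higher list genes, and the replicate block with length and GC correction gave 34 lower, against 14 and 32. Leaving out single libraries gave 6895 to 8324 genes called, 12 to 15 lower list genes and 28 to 36 higher. Direction reversed with median scaling for PGD (0.045) and SOD2 (0.12), with quantile scaling for SOD2 (0.11), and with the replicate block and length and GC correction for CUL3 (0.048), BLVRB (-0.034), SOD1 (-0.085), SOD2 (0.25) and NNT (0.0072). SOD2 also reversed without vector replicate 2 and without SRMS shRNA replicate 1, and ran from -0.13 to 0.014 over single libraries left out. The cause of these changes was not tested. Depth limits SRMS, at 2 to 47 reads, and list genes such as OPLAH (0 to 5) and BACH2 (1 to 6). The fewest reads in any library were 228 for SLC7A11 and 246 for HMOX1.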
